A study of Mus musculus with 1536 samples.

Results

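Expression of 10 genes of lipid handling was followed in single lymphatic endothelial cells (LECs) of the adult mouse nasopharyngeal mucosa: *Apoe*, *Lpl*, *Fabp4*, *Fabp5*, *Cpt1a*, *Ucp2*, *Cyp4b1*, *Slco2b1*, *Thrsp* and *Pparg*. They are 10 of the 23168 genes with values in the adult expression matrix, and each was matched by its symbol. They were chosen by their measured values, because a list of genes with a role in fat metabolism had been drawn up with earlier results from these same cells in view. The genes were followed across all adult cells and in 3 groups of cells set by a threshold on a marker gene. Differences of the members between these groups were part of what selected them and are given as a description, with no test.

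The cells came from C57BL/6 mice of both sexes, aged 10–12 weeks, with no treatment given in the labels. Mucosa from 30 animals was pooled, dissociated and sorted for CD31+PDPN+ cells, and sequenced with Smart-seq3 chemistry, which reads full-length cDNA from cells in the wells of a plate. No cell can be traced to a mouse or a plate, so all cells are 1 sample, there are no replicates, and no p-value was computed. Every standard deviation (SD) below is the spread over cells. Every interval is an exact (Clopper–Pearson) 95% interval that covers counting error in these cells only. Whether the intervals of groups overlap is not a test between them.

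Lymphatic vessels take up fluid, cells and, in the intestine, dietary fat packed into chylomicrons. Fatty acids enter endothelial cells with the help of surface receptors and lipases, are carried inside the cell by fatty acid binding proteins, and enter mitochondria for oxidation through carnitine palmitoyltransferases, of which *Cpt1a* encodes a form that LECs are known to need during development. PPARγ, encoded by *Pparg*, is a nuclear receptor activated by fatty acids, and *Lpl* and *Fabp4* are among its textbook targets in fat tissue. Apolipoprotein E, encoded by *Apoe*, is a secreted lipoprotein component that macrophages, astrocytes and hepatocytes make in quantity.

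The deposited value of a gene in a cell is the natural log of 1 plus its reads per 10000 reads of that cell. A value of 1 was used as the line between clearly expressed and low, and a value above 0 but under 0.25 is called a trace. The median cell had 350746 reads, the shallowest 7433 and the deepest 3524358. All 9 LEC markers were found, with *Prox1*, the transcription factor that sets lymphatic identity, in 97.7% of cells and *Flt4*, the receptor for VEGF-C, in 99.8%.

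The marker thresholds put 31.2% of cells in a Stab2-high group, with a value of *Stab2*, a scavenger receptor for hyaluronan, above 1. Fndc1-high cells (16.9%) had a value of *Fndc1*, a fibronectin domain protein, above 1. Igfbp5-high cells (26.8%) had a value of *Igfbp5*, a binding protein of insulin-like growth factors, above 2. The groups overlapped unevenly, since 63 cells were both Fndc1-high and Igfbp5-high, where 11 were Stab2-high and Fndc1-high and 12 were Stab2-high and Igfbp5-high. The remaining cells passed a single threshold (240 for *Stab2*, 68 for *Fndc1*) or none. The median depth was 368560 reads in Stab2-high, 460124 in Fndc1-high and 344338 in Igfbp5-high cells.

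The 10 genes covered a wide range of levels. *Apoe* was found in 65.4% of cells (interval 62.1–68.7%), *Slco2b1* in 56.9% and *Ucp2* in 55.3%, and about 3 in 10 cells had each of them above 1 (29%, 30.3% and 29.7%). *Cpt1a*, *Cyp4b1*, *Pparg*, *Fabp4* and *Lpl* were each found in 23% to 31.7% of cells and above 1 in 5.58–11.4%. *Thrsp* was found in 86 cells (10.2%) and *Fabp5* in 36 (4.28%). For each of the 10, most cells had a value of 1 or less, so none was a uniform feature of the nasopharyngeal LEC.

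**Figure D1:**
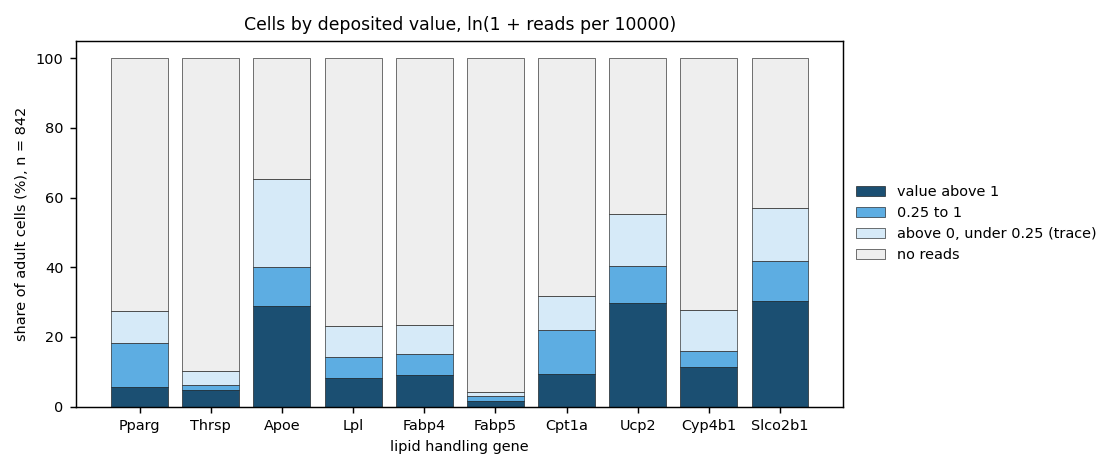
Share of the adult cells (%, vertical axis) in 4 classes of the deposited value for each of the 10 genes: no reads, trace, 0.25 to 1, and above 1. *Apoe*, *Slco2b1* and *Ucp2* had the tallest dark segments, at 29%, 30.3% and 29.7%, and *Fabp5* the shortest, at 1.54%.

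Mean levels of different genes were compared only per length, as mean reads per 10000 divided by the length in kb of the longest principal transcript. The shares of cells set beside each other across genes are not corrected for length. On that scale the mean level was 5.01 for *Apoe*, followed by *Fabp4* (0.787), *Ucp2* (0.578), *Cyp4b1* (0.519), *Slco2b1* (0.420), *Thrsp* (0.273), *Pparg* (0.172), *Cpt1a* (0.0956), *Lpl* (0.0813) and *Fabp5* (0.0659). The SD over cells was larger than the mean for every member, from 1.77 times the mean for *Slco2b1* to 6.78 times for *Fabp5*. That SD is the spread between cells and not the error of a mean. The order describes this sample and was not tested. The place of *Fabp4* depended on the length used: with the union of all annotated exons its level was 0.157, under *Cyp4b1* (0.435), *Ucp2* (0.330), *Slco2b1* (0.309) and *Thrsp* (0.159).

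The members differed in how far their reads lay in few cells. The 10 cells with the most held 63.3% of the summed level of *Fabp5*, 45.2% of *Thrsp*, 36.5% of *Apoe*, 34.4% of *Cyp4b1* and 28.7% of *Fabp4*. They held 23.3% of *Lpl*, 19.4% of *Pparg*, 16.6% of *Ucp2*, 16.2% of *Cpt1a* and 11% of *Slco2b1*. The share of cells with any read of a gene depended on depth. *Pparg* was found in 15.7% of the shallowest, 28.2% of the middle and 38.8% of the deepest of 3 equal depth classes. The share with a value above 1 moved little for *Ucp2*, with 28.8%, 30.4% and 29.9%, but was not free of depth for every member. For *Lpl* it was 4.98%, 9.29% and 9.96%, where the share with any read was 16%, 23.2% and 29.9%. For *Pparg* it was 4.63%, 5.36% and 6.76%, and for *Cpt1a* it went the other way, with 10.7%, 8.57% and 8.9%. With each cell thinned to 20000 reads, which left out 51 shallower cells, *Apoe* was found in 39.9%, *Ucp2* in 41.3%, *Slco2b1* in 41.7% and *Thrsp* in 6.19% of the cells kept. Trace values were common, in 99 cells for *Cyp4b1* and 79 for *Pparg*, and the shares below use the threshold of 1 for that reason.

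Each group of cells was then compared with all adult cells outside it, as the log2 ratio of mean reads per 10000 with 0.1 added to both. The 3 comparisons share most of their cells, so they are not independent of each other. A ratio of at least 2-fold was counted, over genes with a read in 10% or more of cells on either side, which left out *Fabp5*. In Stab2-high cells 1 of the 9 remaining members was higher (*Thrsp*), where 1.28% of all 10049 genes were, and 4 were lower (*Apoe*, *Lpl*, *Ucp2* and *Cyp4b1*), where 1.58% of all genes were. In Fndc1-high cells 2 were higher (*Ucp2* and *Cyp4b1*), against 0.526% of 10073 genes, and 2 were lower (*Fabp4* and *Thrsp*), against 0.784%. In Igfbp5-high cells 1 was higher (*Ucp2*), against 0.68% of 9997 genes, and 1 was lower (*Thrsp*), against 0.82%. As the members were selected on such values, nothing is read from these shares. The median log2 ratio over the 9 members compared was -0.72 in Stab2-high, 0.07 in Fndc1-high and 0.11 in Igfbp5-high cells. Over all genes compared it was 0.04, -0.01 and -0.03. With *Fabp5* included, the median of the members was -0.64, -0.05 and -0.02.

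**Figure D2:**
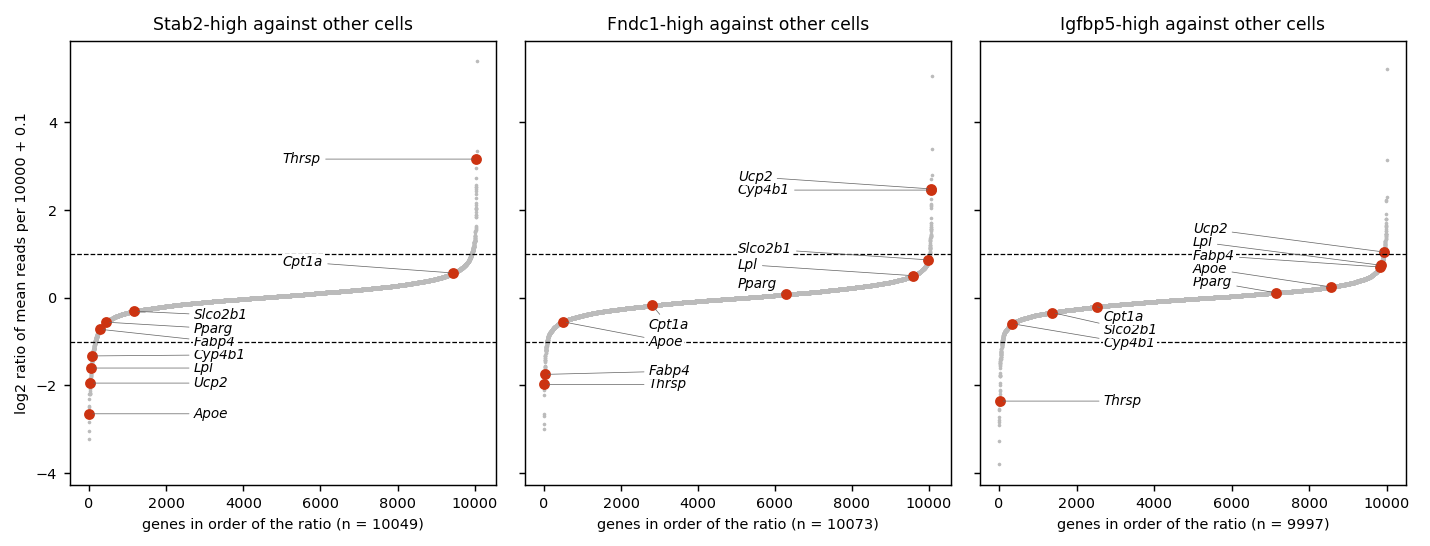
Log2 ratio of mean reads per 10000 plus 0.1 (vertical axis) in Stab2-high, Fndc1-high and Igfbp5-high cells against the cells outside each group, with genes in order of the ratio (horizontal axis). Grey points are all genes compared, red points the members and dashed lines a 2-fold difference. *Thrsp* (3.16) and *Apoe* (-2.65) lay at opposite ends in Stab2-high cells, and *Ucp2* (2.48) and *Cyp4b1* (2.45) near the top in Fndc1-high cells.

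Among the genes that act on transcription, *Thrsp* and *Pparg* behaved differently. *Thrsp* (chromosome 7, 97412938–97417730, GRCm38) encodes Spot14, a nuclear protein induced by thyroid hormone that promotes fatty acid synthesis in liver and fat. Its value ran from 0 to 3.37 with a median of 0 in Stab2-high cells, and from 0 to 1.99 with a median of 0 outside them. It was above 1 in 36 Stab2-high cells (13.7%, interval 9.77–18.4%) and in 3 other cells (0.518%, interval 0.107–1.51%). Thus 36 of the 39 cells with a clear *Thrsp* signal were Stab2-high, although most Stab2-high cells had no read of it.

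The mean of *Thrsp* was 1.05 ± 3.16 reads per 10000 (mean ± SD over cells) in Stab2-high cells and 0.0290 ± 0.322 outside, a log2 ratio of 3.16. No Igfbp5-high cell had a value above 1 (0%, upper limit 1.62%), and 1 Fndc1-high cell did. The lower ratios of *Thrsp* in Fndc1-high (-1.97) and Igfbp5-high cells (-2.36) were set against outside groups that hold the Stab2-high cells. Against the cells that passed no threshold, the ratio was 0.02 in cells that were only Fndc1-high and -0.49 in cells that were only Igfbp5-high. The means were 0.0430 reads per 10000 with *Fndc1* alone, 0.000907 with *Igfbp5* alone and 0.0413 with none. The added 0.1 is larger than each of these means and holds such ratios near 0. Away from the Stab2-high cells the mean of *Thrsp* was thus near 0 throughout.

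*Pparg* (chromosome 6, 115360951–115490399) was spread more evenly. Its value was at most 2.17, with a median of 0 in all 3 groups. Values above 1 were seen in 9 Stab2-high cells (3.42%, interval 1.58–6.40%), 8 Fndc1-high cells (5.63%, interval 2.46–10.8%) and 12 Igfbp5-high cells (5.31%, interval 2.77–9.09%). These intervals overlapped, and the log2 ratios were -0.56, 0.07 and 0.11.

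**Figure D3:**
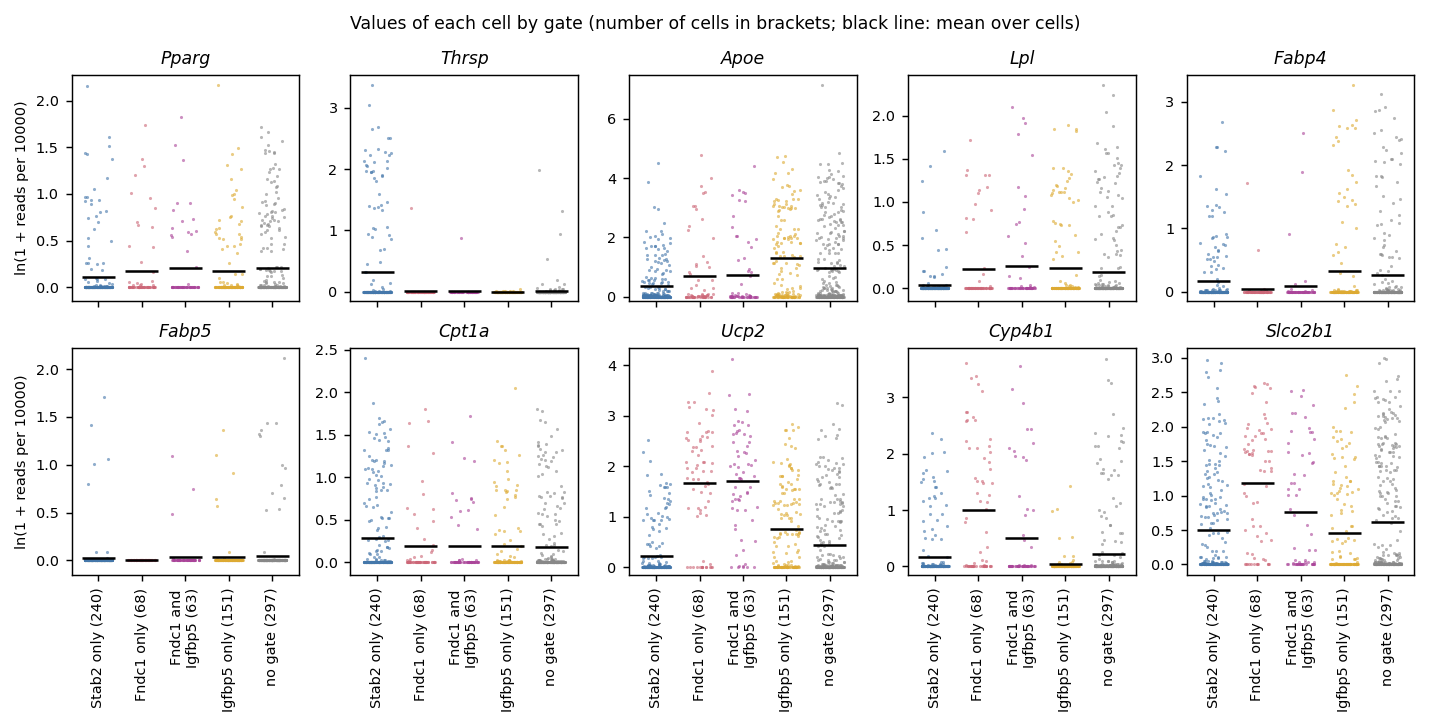
Deposited value, ln(1 + reads per 10000), of each cell for the 10 genes (vertical axes, scaled per gene) in 5 sets of cells that do not overlap: only Stab2-high, only Fndc1-high, Fndc1-high and Igfbp5-high, only Igfbp5-high, and none. Black lines are means over cells. *Thrsp* values above 2 lay in the Stab2-high set, and the 1 *Apoe* value above 7 in a cell of no group.

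The genes of lipoproteins and their hydrolysis, *Apoe* and *Lpl*, were both lower in Stab2-high cells. *Apoe* (chromosome 7, 19696109–19699188) ran from 0 to 4.50 with a median of 0.0255 in Stab2-high cells, and from 0 to 7.13 with a median of 0.0924 outside them. A value above 1 occurred in 39 Stab2-high cells (14.8%, interval 10.8–19.7%) and in 35.4% of other cells (interval 31.5–39.5%). The groups overlapped widely. The mean was 1.45 ± 6.72 reads per 10000 inside and 9.60 ± 54.6 outside, a log2 ratio of -2.65.

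A single well weighed on that mean. *Apoe* made up 12.5% of its reads and 21.1% of all *Apoe* in the summed cells, where the next highest cell had 125.7 reads per 10000. The same well had reads of 6 of the 7 immune markers analysed, among them 250.3 reads per 10000 of *Lyz2*, the lysozyme of myeloid cells, and 24.1 of *Csf1r*, the receptor of macrophage growth factor, beside 1.38 of *Prox1*. It passed none of the 3 thresholds. Without it the mean of *Apoe* over all cells was 5.57 in place of 7.06, and the log2 ratio was -2.28 in Stab2-high, -0.16 in place of -0.55 in Fndc1-high and 0.75 in place of 0.25 in Igfbp5-high cells. In all, 11 wells had reads of at least 3 immune markers, and *Apoe* was above 1 in 4 of these. The other cells with *Apoe* above 1 had fewer than 3 of the markers. Whether material of immune cells added to their *Apoe* was not tested.

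Among cells that passed 1 threshold only, *Apoe* was above 1 in 73 Igfbp5-high cells (48.3%, interval 40.1–56.6%), 17 of 68 Fndc1-high cells (25%, interval 15.3–37%) and 35 of 240 Stab2-high cells (14.6%, interval 10.4–19.7%). Of these the share was highest in the Igfbp5-high cells. In the 63 cells that were both Fndc1-high and Igfbp5-high the share was 25.4% (interval 15.3–37.9%), near that of cells with *Fndc1* alone. In the cells with none it was 33.3% (interval 28–39%).

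*Lpl* (chromosome 8, 68880491–68907448) encodes lipoprotein lipase, which frees fatty acids from triglyceride-rich lipoproteins at the vessel wall. Its value ran from 0 to 1.81 in Stab2-high cells and from 0 to 2.36 outside, with a median of 0 in both. Only 4 Stab2-high cells (1.52%, interval 0.416–3.85%) had a value above 1, where 64 others did (11.1%, interval 8.62–13.9%). The mean was 0.0811 ± 0.478 against 0.450 ± 1.19 reads per 10000, a log2 ratio of -1.60. In Fndc1-high and Igfbp5-high cells *Lpl* was above 1 in 10.6% and 12.8%, with log2 ratios of 0.50 and 0.74. *Gpihbp1*, which anchors lipoprotein lipase to capillary endothelium, differed in the opposite direction to *Lpl* in the first and last of these groups, with a mean of 6.94 reads per 10000 in Stab2-high and 3.75 in other cells (log2 ratio 0.87) and of 2.36 in Igfbp5-high and 5.62 in other cells (log2 ratio -1.22). In Fndc1-high cells both were above the other cells, *Gpihbp1* at 6.03 against 4.49 (log2 ratio 0.42).

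The intracellular carriers *Fabp4* and *Fabp5* lie near each other on chromosome 3, at 10204088–10208576 and 10012548–10016607. *Fabp4*, the adipocyte and capillary form, was above 1 in 3 Fndc1-high cells (2.11%, interval 0.438–6.05%) and in 73 of 700 others (10.4%, interval 8.26–12.9%). Its highest value was 2.51 in Fndc1-high cells and 3.27 outside, with a median of 0 in both. The mean was 0.172 ± 1.13 against 0.813 ± 2.76 reads per 10000, a log2 ratio of -1.75. In Igfbp5-high cells it was above 1 in 29 cells (12.8%) and in Stab2-high cells in 19 (7.22%), with log2 ratios of 0.70 and -0.72. *Fabp5*, known from skin and immune cells, had a value above 1 in only 13 cells (1.54%, interval 0.825–2.63%), too few to compare the groups.

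The mitochondrial genes split. *Cpt1a* (chromosome 19, 3322334–3385733), which brings long-chain fatty acids into mitochondria, had its highest share in Stab2-high cells, above 1 in 34 cells (12.9%, interval 9.12–17.6%) against 45 others (7.77%, interval 5.73–10.3%). The intervals overlapped. The means were 0.560 ± 1.22 and 0.346 ± 0.890 reads per 10000, a log2 ratio of 0.56, and no group reached a 2-fold difference.

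*Ucp2* (chromosome 7, 100493337–100502020), an uncoupling protein of the inner mitochondrial membrane, differed widely between the groups. In Fndc1-high cells its value ran from 0 to 4.14 with a median of 1.76, and outside them from 0 to 3.26 with a median of 0. The share above 1 was 73.9% (interval 65.9–80.9%) in Fndc1-high and 20.7% (interval 17.8–23.9%) in other cells. The mean was 7.47 ± 9.05 against 1.26 ± 2.89 reads per 10000, a log2 ratio of 2.48, which placed *Ucp2* as the gene with rank 5 of 10073 in Fndc1-high cells. *Ucp2* was the only member with a value above 1 in most cells of any of the 3 groups.

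The level of *Ucp2* went with *Fndc1* more than with *Igfbp5*. The share above 1 was 76.5% (52 of 68, interval 64.6–85.9%) in cells with *Fndc1* alone and 76.2% (48 of 63, interval 63.8–86%) in cells that were also Igfbp5-high. It was 37.1% (56 cells, interval 29.4–45.3%) in cells with *Igfbp5* alone, 20.5% (61 cells, interval 16.1–25.6%) in cells with none and 10.4% (25 of 240, interval 6.86–15%) in cells with *Stab2* alone. The mean levels were 7.84, 7.83, 2.16, 1.35 and 0.516 reads per 10000 in the same order. The call of *Ucp2* in Igfbp5-high cells (log2 ratio 1.04) thus rested in part on cells that were also Fndc1-high, and for cells with *Igfbp5* alone against cells with none the ratio was 0.64. An exon of *Ucp2* overlaps one of *Dnajb13* on the other strand, and whether reads were counted by strand is not stated.

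**Figure D4:**
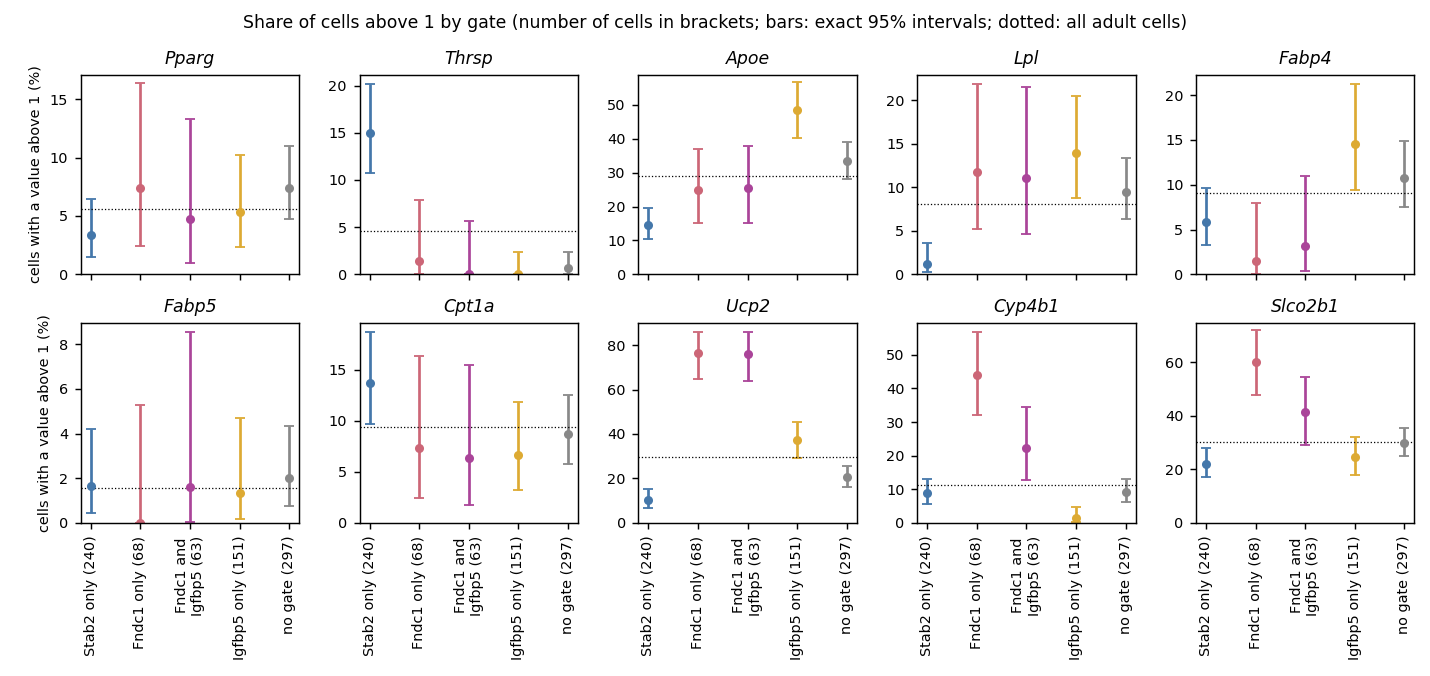
Share of cells with a value above 1 (%, vertical axes, scaled per gene) for the 10 genes in the same 5 sets of cells that do not overlap. Points are shares, bars exact 95% intervals and dotted lines the share over all adult cells. For *Ucp2* both Fndc1-high sets stood at 76.5% and 76.2% with the other sets at 37.1% or less, and for *Lpl* the Stab2-high set stood lowest at 1.25%.

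The last members act on fatty acid derivatives and on organic anions. *Cyp4b1* (chromosome 4, 115624725–115647723), a cytochrome P450 of the family that hydroxylates fatty acids, had a value from 0 to 3.62 in Fndc1-high and from 0 to 3.69 in other cells, with a median of 0 in both. Among Fndc1-high cells 45 had it above 1 (31.7%, interval 24.1–40%), and 51 of 700 others did (7.29%, interval 5.47–9.47%). The mean was 3.28 ± 6.80 against 0.516 ± 2.46 reads per 10000, a log2 ratio of 2.45. Unlike *Ucp2*, it had a lower share where *Igfbp5* was high as well. It was above 1 in 44.1% (30 of 68, interval 32.1–56.7%) of cells with *Fndc1* alone, 22.2% (14 of 63, interval 12.7–34.5%) with both and 1.32% (2 cells, interval 0.161–4.70%) with *Igfbp5* alone, where cells with none had 9.09% (27 cells, interval 6.08–13%). The intervals of the first pair overlapped slightly.

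*Slco2b1* (chromosome 7, 99657804–99711340) encodes an uptake transporter of steroid sulfates, bile acids and many drugs, and had the smallest spread over single cells of the members, relative to its mean. Its value ran from 0 to 3.01 in Fndc1-high cells with a median of 0.954, and from 0 to 2.99 with a median of 0.0185 outside. A value above 1 was found in 71 Fndc1-high cells (50%, interval 41.5–58.5%) and in 26.3% of others (interval 23.1–29.7%), with means of 3.0 ± 3.75 and 1.60 ± 3.11 reads per 10000 and a log2 ratio of 0.86, short of 2-fold. The share was 60.3% in cells with *Fndc1* alone and 24.5% in cells with *Igfbp5* alone. Exons of *Slco2b1* overlap those of *Gm15635* and *Gm34280* on the other strand.

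The members were set against each other from cell to cell. Over the thinned cells, Spearman's rho of the 45 pairs lay between -0.19 and 0.28 with a median of 0.00302. Only 3 pairs passed 0.2 in size: *Ucp2* with *Cyp4b1* (0.28), *Fabp4* with *Fabp5* (0.22) and *Cyp4b1* with *Slco2b1* (0.21). These are descriptions across cells of 1 sample, which share their depth correction and are not replicates, and weak values in sparse counts show neither a link nor its absence. Of the 96 cells with *Cyp4b1* above 1, 58 (60.4%) had *Ucp2* above 1, where 29.7% of all cells did, and of the 68 with *Lpl* above 1, 33 (48.5%) had *Apoe* above 1, where 29% of all cells did. The mean number of the 10 genes above 1 in a cell was 1.39 ± 1.06 (SD over all cells), and 22.3% of cells had none. Cells with *Fndc1* alone had 2.35 ± 0.974 and cells with *Stab2* alone 0.967 ± 0.914. As the members were selected in part on differences between these groups, and no such count over all genes is given, nothing is read from this.

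The genes most like each member were ranked among 7263 genes found in at least 20% of cells. For *Slco2b1* the closest was *Lyve1*, the hyaluronan receptor of initial lymphatics (rho 0.45 in thinned and 0.45 in all cells), followed by *Enpp3* (0.33) and *Reln* (0.32). *Cyp4b1* was also closest to *Lyve1* (0.37), then *Fndc1* (0.31) and *Enpp3* (0.30). *Ucp2* was closest to *Fndc1* (0.46), *Pcp4l1* (0.42) and *Tnxb* (0.36). *Apoe* and *Lpl* shared *Parm1* and *Clca3a1* among their closest genes, with rho of 0.41 and 0.40 for *Apoe* and 0.24 and 0.27 for *Lpl*. For *Fabp4*, *Cpt1a* and *Pparg* no gene reached 0.18, and *Thrsp* and *Fabp5* were found in too few cells to be ranked.

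The share of cells with *Lyve1*, which the thresholds did not use, ran over a wide range among the members. It had a value above 1 in 48.3% of cells. Of the cells with *Cyp4b1* above 1, 82 of 96 (85.4%) had *Lyve1* above 1, and of those with *Slco2b1* above 1, 77.3%. *Ucp2* followed with 61.2%. At the other end stood *Apoe* with 25.8%, *Lpl* with 17 of 68 (25%), *Fabp4* with 19 of 76 (25%) and *Fabp5* with 3 of 13 (23.1%). Between the ends lay *Cpt1a* (41.8%), *Thrsp* (38.5%) and *Pparg* (36.2%). *Lyve1* itself differed between the groups, with a log2 ratio of 1.25 in Fndc1-high, 0.14 in Stab2-high and -1.07 in Igfbp5-high cells.

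The other genes of the pathways were counted in the same way, beside the 1.28% higher and 1.58% lower of all genes in Stab2-high cells and the smaller shares in the other groups. Of 21 mitochondrial fatty acid oxidation genes compared, *Cpt1a* among them, 0 differed 2-fold in any group, with medians between -0.11 and 0.07, and of 10 lipid droplet and triglyceride synthesis genes 0 did. At those background shares, lists of this size would be near 0 as well. Among fatty acid synthesis genes *Thrsp* was the member of the list that passed 2-fold, 1 of 12 compared in Stab2-high cells, where the median of the list was 0.20. Among 17 cholesterol genes *Apoe* was the 1 that passed, again in Stab2-high cells. Of the uncoupling protein family, *Ucp2* passed in all 3 groups and no other member did in any. Of 3 organic anion transporters compared, 0 passed.

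Of the fatty acid uptake, binding and lipase genes, 18 were compared in Stab2-high cells, where 2 were higher and 2 lower, *Lpl* included, beside 1.28% and 1.58% of all genes. In Igfbp5-high cells 1 of 19 was higher and 2 were lower, beside 0.68% and 0.82%. Of 7 epoxide, prostaglandin and related cytochrome genes, 2 were lower in Stab2-high cells, *Cyp4b1* included. *Cd36*, a fatty acid and scavenger receptor, was higher in Stab2-high cells (0.686 against 0.219 reads per 10000, log2 ratio 1.30) and lower in Igfbp5-high cells (0.0733 against 0.472, log2 ratio -1.72). In Stab2-high cells *Mgll*, the lipase of monoacylglycerols, was higher (log2 ratio 1.05), and *Cav1*, the coat protein of caveolae, was lower (-1.31). *Ephx1*, an epoxide hydrolase, was lower there too (-1.33). *Slc27a3*, of the fatty acid transport protein family, was higher in Igfbp5-high cells (1.08). In Fndc1-high cells no gene of these lists beyond the members passed 2-fold. As a group, Stab2-high cells thus had higher means of *Thrsp*, *Cd36* and *Mgll* and lower means of *Apoe*, *Lpl*, *Ucp2*, *Cyp4b1*, *Cav1* and *Ephx1*. For *Cyp4b1* the cells outside the group hold most Fndc1-high cells. It was above 1 in 8.75% of cells with *Stab2* alone and in 9.09% of cells with none. The means of these sets were 0.415 and 0.840 reads per 10000. Whether these genes went together within single cells was not read from the group means.

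Markers of other cell types were looked at beside these values. Of 7 adipocyte markers listed 2 were analysed, and their summed level was at most 2.27 reads per 10000 in any cell, with a median of 0. Immune markers summed to between 0 and 327.4 reads per 10000 with a median of 0, and 1.31% of cells had at least 3 of the 7 analysed. *Ptprc*, the common leukocyte marker CD45, had no read in any cell. The highest sum of the list was 21.6 in Stab2-high, 4.75 in Fndc1-high and 10.2 in Igfbp5-high cells. In Stab2-high cells the share with 3 was 1.90% (interval 0.620–4.38%), in Fndc1-high cells 0% (upper limit 2.56%) and in Igfbp5-high cells 0.442%. Fibroblast, epithelial, mural and Schwann cell markers each had a median sum of 0, and 2 cells had at least 3 fibroblast markers. Of the 8 blood endothelial markers, *Emcn* (94.2% of cells), *Plvap* (77.8%) and *Gpihbp1* (70.7%) were found widely in cells that also had *Prox1*. The others (*Flt1*, *Vwf*, *Aqp7*, *Meox2* and *Rgcc*) were each found in under 10% of cells on both sides of every threshold. At least 3 of the list were found in 59.7% of cells. That share was 71.5% (interval 65.6–76.9%) in Stab2-high, 52.1% (interval 43.6–60.6%) in Fndc1-high and 57.1% (interval 50.3–63.6%) in Igfbp5-high cells. *Plvap* (log2 ratio 1.32) and the monocyte marker *Cd14* (1.13) were higher in Stab2-high cells. In Fndc1-high cells *Plvap* (-1.43), *Cd14* (-1.61), *Fcer1g* (-1.19) and the fibroblast gene *Dcn* (-1.41) were lower. In Igfbp5-high cells *Gpihbp1*, *Cd14* (-1.49) and *Dcn* (-1.21) were lower. Without the 13 wells that had at least 3 markers of another type, leaving aside the blood endothelial list, the log2 ratio of *Apoe* was -2.27 in Stab2-high cells, and that of *Ucp2* and *Cyp4b1* in Fndc1-high cells was 2.52 and 2.44. The part of the blood endothelial genes, *Cd14*, *Fcer1g* and *Dcn* in the member values was not tested.

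Cells near the thresholds did not always follow the groups. The 20 cells just above the *Fndc1* threshold, with values from 1.01 to 1.22, had a mean *Ucp2* of 4.18 reads per 10000, and the 20 just below it, from 0.858 to 0.995, had 2.72. *Cyp4b1* was 0.563 just above and 2.04 just below. At the *Stab2* threshold, *Thrsp* was 0.0551 just above and 0.454 just below, and *Apoe* was 0.705 just above and 3.8 just below, and *Cyp4b1* was 1.17 just above and 0.277 just below. At the *Igfbp5* threshold *Ucp2* was 3.66 just above and 3.21 just below, and *Thrsp* was 0.0551 just above and 0.000528 just below. Among these, the means of *Cyp4b1* at the *Fndc1* and *Stab2* thresholds and of *Thrsp* at the *Stab2* and *Igfbp5* thresholds reversed the group order. Few cells made up these means. *Thrsp* had reads in 1 cell just above and 5 just below the *Stab2* threshold, and in 1 on each side for *Igfbp5*. *Cyp4b1* was above 1 in 3 cells just above and 2 just below the *Fndc1* threshold, which is the group order. At the *Stab2* threshold it was above 1 in 4 cells just above and 2 just below.

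**Figure D5:**
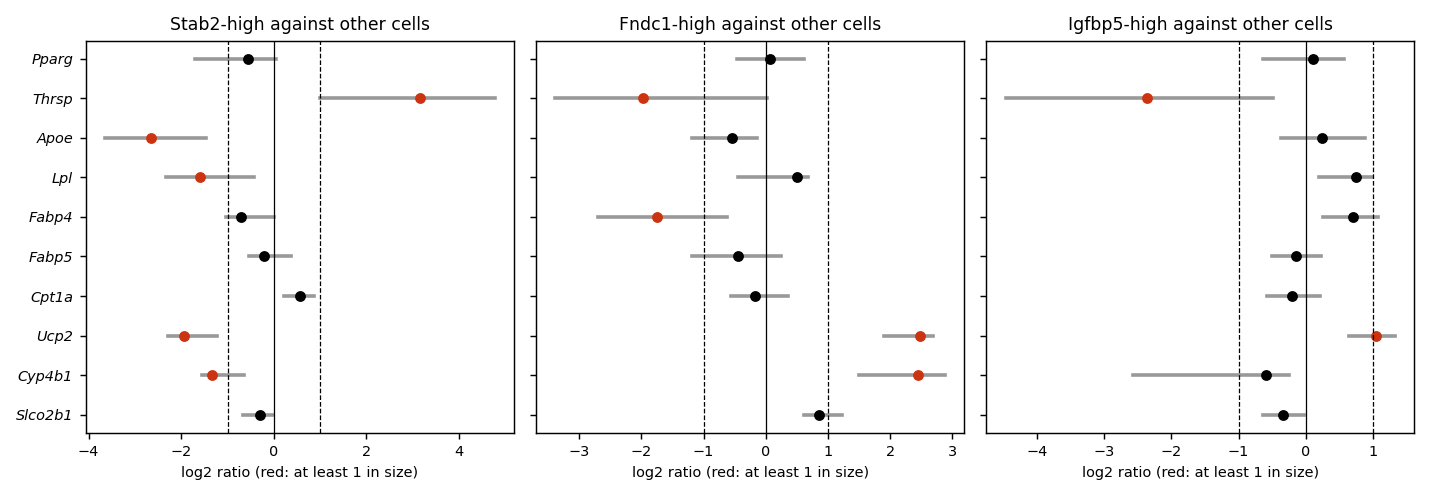
Log2 ratio of each member (horizontal axes) in Stab2-high, Fndc1-high and Igfbp5-high cells against the cells outside each group. Points are the values given above, red where at least 2-fold, and grey bars span 15 other ways of computing them; dashed lines mark 2-fold. The bars of *Apoe* and *Ucp2* in Stab2-high cells and of *Ucp2* and *Cyp4b1* in Fndc1-high cells stayed beyond 2-fold.

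The 11 ratios of at least 2-fold were recomputed in 15 other ways, which varied the added constant, the thresholds, the cells kept, the depth and the weight of deep cells. Of these, 4 stayed beyond 2-fold in all 15. *Apoe* in Stab2-high cells lay between -3.64 and -1.46, *Ucp2* in Stab2-high cells between -2.28 and -1.23, *Ucp2* in Fndc1-high cells between 1.91 and 2.69 and *Cyp4b1* in Fndc1-high cells between 1.5 and 2.88. Of the 19 ratios under 2-fold, 11 changed sign at least once, among them *Apoe* in Igfbp5-high and *Lpl* in Fndc1-high cells.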

How the data were processed

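Values were held for 842 of 1536 wells listed, with 263 Stab2-high, 142 Fndc1-high and 226 Igfbp5-high cells and 579, 700 and 616 cells outside them. Cells past a single threshold numbered 240, 68 and 151, and 297 passed none. Per the labels and methods, the authors used STAR (mm10), featureCounts in Subread and Seurat 4.1.0, and kept cells with at least 2000 genes and at most 10% mitochondrial reads. The deposited unit is a natural log, ln(1 + reads per 10000): exponentials minus 1 summed to 10000 in each cell, although the methods write log2. Strand, multi-mapping and annotation are not given in the sources used here.

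Whole reads were recovered from 100% of values (within 0.01 reads), and 791 cells were thinned to 20000 reads. The members and the gene lists were chosen with earlier results of these data known. Genes named were the members, the marker genes that set the groups, list genes past 2-fold or with the highest mean of their list, and the 3 genes closest to each member. *Lyve1* was examined further after its rank had been seen. Ratios of means had 0.1 reads per 10000 added to both sides. No doublet caller was run. Coordinates and transcript lengths came from GENCODE M21 on GRCm38. Steps were tested on simulated data. Alternatives changed the added constant, thresholds, depth, cells and weights. Software was Python 3.11.15 with SciPy 1.17.1, pandas 2.3.3 and NumPy 2.4.6.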

Additional observations from a re-analysis of the deposited data

How the results depend on the processing

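Of the 11 ratios of at least 2-fold, 10 kept their sign under all 15 alternatives. *Thrsp* in Fndc1-high cells did not, at 0.017 for cells past 1 threshold only against cells past none, since the Stab2-high cells then left the comparison. Adding 1 in place of 0.1 shrinks the ratios of scarce genes by construction: the members at least 2-fold higher were then 0 and those lower 2 in Stab2-high cells, those lower were 0 in Fndc1-high cells, and those higher and lower were 0 and 0 in Igfbp5-high cells. Of the other genes of the pathway lists, 0 were then higher in Stab2-high cells, and 0 higher and 0 lower in Igfbp5-high cells. The single member higher in Igfbp5-high cells, *Ucp2*, was lost (0 members) with thresholds at 0.5 times their value, in cells past 1 threshold only, in cells with at least 3000 genes, with summed reads and within the middle of 3 depth classes. The members lower in Igfbp5-high cells were 2 with thresholds at 1.5 times their value and 2 within the middle depth class, with *Cyp4b1* added. The members lower in Fndc1-high cells were 1 with thresholds at 0.5 times their value. Apart from the added constant, the cause was not tested. The alternatives that left out the well with the highest *Apoe*, set aside the blood endothelial list or split the cells by depth were chosen after seeing the data. No paired analysis was possible because the cells are 1 sample, and no mouse or plate could be left out in turn because cells carry the name of neither.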
